A study of Arabidopsis thaliana with 21 samples.

Results

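Genes that carried H2A.Z in wild-type (WT) seedlings were compared with those that carried it in *mbd9-1* seedlings of *Arabidopsis thaliana*, gene by gene. A protein-coding gene was counted as marked in a library when the centre of a listed H2A.Z peak lay between 500 bp upstream of its transcript start site (TSS) and its transcript end site (TES). Of 27444 protein-coding genes on chromosomes 1 to 5, 13044 were marked in at least 1 of the 6 H2A.Z libraries and 14400 in none. A gene marked in every WT library and in no *mbd9-1* library is called lost, one marked in all 6 libraries kept, and one marked in every *mbd9-1* library and in no WT library gained. There were 1190 lost genes (4.34% of all protein-coding genes), 814 kept genes (2.97%) and 151 gained genes (0.55%). These counts depended on single libraries. Leaving out 1 library at a time gave 1338 to 2075 lost genes (the most without WT replicate 2), 872 to 1376 kept genes and 175 to 459 gained genes (the most of both without *mbd9-1* replicate 3). All plants were of the Col-0 ecotype and 6 days old, and shoots with the roots cut off were pooled for each sample, so that every list averages over the cell types of a seedling. WT plants carried no insertion, and *mbd9-1* plants carried a T-DNA in *MBD9*. A single *mbd9* allele was profiled by sequencing, so that in these lists what belongs to the gene and to this line cannot be told apart. By ChIP-qPCR the paper reported lower H2A.Z at *FLC*, *ASK11* and *At4* in further *mbd9* alleles as well. Chromatin bound to H2A.Z was precipitated and sequenced in 3 biological replicates of each genotype, and 3 WT libraries of acetylated histone H4 (H4Ac) served as a second readout. The chromatin of each sample was divided between both precipitations, so the WT H4Ac and H2A.Z libraries come from the same samples. The lists hold positions only, so the depth behind a peak is unknown, and an unlisted gene may hold H2A.Z below the caller's threshold.

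H2A.Z is a variant of histone H2A that replaces the canonical histone in nucleosomes, in plants mostly just downstream of the TSS and, at genes that respond to the environment or to development, also over the gene body. It is deposited by the SWR1 chromatin-remodelling complex, whose catalytic subunit in Arabidopsis is PIE1 and which needs the actin-related protein ARP6. MBD9 carries a methyl-CpG-binding domain and other chromatin-reading domains, and the comparison asks at which genes H2A.Z depends on it.

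The stretches below show the DNA that the classes refer to. They are the first 2 genes of each class among those with the longest covered windows for which 200 bases inside 1 coding exon lay under a peak of every library that defines the class. They are read from RefSeq TAIR10.1 in the direction of transcription, and capitals mark CG dinucleotides, the site after which the methyl-CpG-binding domain is named. For the lost genes, an XH/XS domain gene (chr5:23956242-23956441, + strand) and a gene for a long-chain fatty alcohol dehydrogenase family protein (chr4:10569213-10569412, - strand), these bases lay under a peak in all 3 WT lists:
AT5G59390: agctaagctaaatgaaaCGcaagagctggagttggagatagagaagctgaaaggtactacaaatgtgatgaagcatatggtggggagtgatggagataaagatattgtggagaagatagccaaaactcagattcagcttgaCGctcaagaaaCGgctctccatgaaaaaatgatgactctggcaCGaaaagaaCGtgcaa
AT4G19380: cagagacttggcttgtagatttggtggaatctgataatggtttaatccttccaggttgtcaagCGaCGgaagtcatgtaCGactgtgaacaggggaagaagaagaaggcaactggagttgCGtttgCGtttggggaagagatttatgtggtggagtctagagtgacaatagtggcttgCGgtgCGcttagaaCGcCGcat
For the kept genes, a gene for an aminotransferase-like mobile domain protein (chr1:18827952-18828151, - strand) and one annotated as a basic helix-loop-helix protein (chr4:17877036-17877235, + strand), they lay under a peak in all 6 lists:
AT1G50820: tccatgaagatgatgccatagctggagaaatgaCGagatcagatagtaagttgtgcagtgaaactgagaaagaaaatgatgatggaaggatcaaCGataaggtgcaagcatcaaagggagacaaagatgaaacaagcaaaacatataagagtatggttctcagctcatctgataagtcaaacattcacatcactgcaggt
AT4G38062: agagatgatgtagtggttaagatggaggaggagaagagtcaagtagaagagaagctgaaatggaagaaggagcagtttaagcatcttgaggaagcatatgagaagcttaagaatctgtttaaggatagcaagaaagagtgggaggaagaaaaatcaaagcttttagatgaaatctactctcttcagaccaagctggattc
For the gained genes, a P-type ATPase gene (chr1:20266815-20267014, - strand) and a TRAF-like gene (chr3:16329939-16330138, + strand), they lay under a peak in all 3 *mbd9-1* lists:
AT1G54280: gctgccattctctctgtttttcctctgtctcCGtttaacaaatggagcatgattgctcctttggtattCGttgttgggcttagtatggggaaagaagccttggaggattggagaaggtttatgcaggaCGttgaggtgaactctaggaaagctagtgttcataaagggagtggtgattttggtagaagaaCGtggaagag
AT3G44790: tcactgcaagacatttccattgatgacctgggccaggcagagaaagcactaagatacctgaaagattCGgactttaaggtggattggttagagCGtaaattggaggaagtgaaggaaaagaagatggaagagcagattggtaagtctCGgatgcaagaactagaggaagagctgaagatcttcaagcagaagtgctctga
The 2 lost stretches held 5 and 9 CG dinucleotides, the 2 kept ones 2 and 0, and the 2 gained ones 4 and 3. Over whole classes CG content was close: under WT replicate 1 peaks the median was 3.31 CG per 100 bases at lost genes, 3.24 at kept genes and 3.37 at all marked genes. The examples therefore show where the peaks lay and not a difference between classes.

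Fewer genes were marked in *mbd9-1* than in WT. WT replicates 1, 2 and 3 marked 8480, 5731 and 7241 genes, and *mbd9-1* replicates 1, 2 and 3 marked 4536, 5249 and 3542. Every *mbd9-1* library was below every WT library, although *mbd9-1* replicate 2 came close to WT replicate 2. WT libraries averaged 7151 ± 1377 genes and *mbd9-1* libraries 4442 ± 857 (SD, n = 3 each). An exact two-sided permutation over libraries gave p = 0.1 for this difference of -2708 genes, or 0.15 after Benjamini-Hochberg adjustment over 6 measures. When every list was cut to its 5215 widest peaks, the number in the shortest list, the difference was -689 genes, still without overlap. With 3 libraries against 3, 0.1 is the smallest p there is, and no comparison of this kind can pass 0.05. Replicates agreed only in part. Of the genes marked in WT replicate 2, 81.8% were also marked in WT replicate 1, which in turn shared 55.3% of its genes with replicate 2. In *mbd9-1*, 56.2% of the genes of replicate 2 were marked in replicate 1 and 39.6% in replicate 3.

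The library of *mbd9-1* replicate 3 stood apart. Of its 5633 peaks 3664 marked a gene, against 87.2% and 92.1% in the other *mbd9-1* libraries and 89.9% to 91.5% in WT, and its median peak was 381 bp wide, against 587 to 668 bp elsewhere. Results that lean on it are given with and without it.

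**Figure D1:**
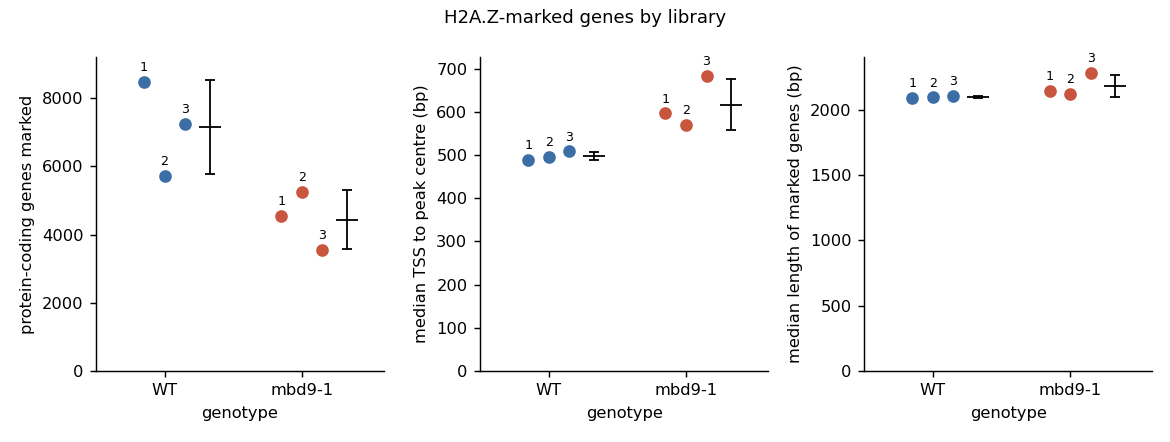
Protein-coding genes marked, median distance from the TSS to the peak centre (bp) and median length of marked genes (bp), with 1 numbered point per library and a bar for the mean ± SD of 3 libraries. The 3 *mbd9-1* libraries marked 3542 to 5249 genes, below the 5731 to 8480 of WT, and their peak centres lay farther from the TSS.

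Genes marked in more WT libraries were more often marked in *mbd9-1*. Of 16756 genes without a peak in any WT library, 14400 had none in *mbd9-1* either. Of the genes marked in 1 WT library, 62.2% were marked in no *mbd9-1* library, a share that was 48.9% among those marked in 2 WT libraries and 31.5% among those marked in all 3. Of the 3772 genes marked in every WT library, 31.5% were thus lost, 21.6% kept, and the other 1768 were marked in 1 or 2 *mbd9-1* libraries. Without *mbd9-1* replicate 3 the order turned, with 35.5% lost and 36.5% kept. As the classes require that no centre lies in the stretch, few bases of it can be covered: 1140 of the 1190 lost genes had no base of it under an *mbd9-1* peak, and 129 of the 151 gained genes none under a WT peak.

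Since the classes were set by these 6 lists, they were also built without 1 list at a time and then read in the list left out. Lost genes defined without it were marked in 82.7% of cases in WT replicate 1, 57.3% in WT replicate 2 and 73.0% in WT replicate 3, and in 15.8%, 29.2% and 11.1% in *mbd9-1* replicates 1, 2 and 3. All protein-coding genes were marked in 30.9%, 20.9% and 26.4% of cases in the WT libraries, and in 16.5%, 19.1% and 12.9% in the *mbd9-1* libraries. In *mbd9-1* replicates 1 and 3 the lost genes thus lay slightly below all genes, and in replicate 2 above them. In WT a share above all genes was built in, since the lost genes had to be marked in the other 2 WT lists. Of all genes marked in those 2 lists, WT replicates 1, 2 and 3 marked 3772 of 4251, of 5595 and of 4690. These are larger shares than those of the lost genes. Kept genes were marked in the left-out library in 82.6% to 93.3% of cases in WT and in 77.8%, 88.0% and 59.2% in *mbd9-1* replicates 1, 2 and 3. The gained class was less steady. Defined without it, gained genes were marked in 54.7%, 62.1% and 32.9% of cases in *mbd9-1* replicates 1, 2 and 3, but also in 41.9% in WT replicate 1, 13.7% in WT replicate 2 and 26.0% in WT replicate 3, which for replicate 1 exceeded the 30.9% of all genes.

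Peak centres lay farther into the gene in *mbd9-1*. The median distance from the TSS to the centre of a marking peak was 489, 495 and 508.5 bp in WT replicates 1, 2 and 3 and 596.75, 569.5 and 683 bp in *mbd9-1* replicates 1, 2 and 3. The groups did not overlap, and the difference of 119 bp (497.5 ± 9.99 bp in WT and 616 ± 59.3 bp in *mbd9-1*, SD, n = 3 each) had p = 0.1 in the exact permutation test. Without *mbd9-1* replicate 3 it was 85.6 bp. The share of centres more than 1000 bp downstream of the TSS was 20.6%, 20.7% and 21.9% in WT and 25.4%, 23.8% and 36.3% in *mbd9-1* (p = 0.1, exact permutation, 0.25 adjusted over 5 measures added after the lists had been opened).

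In WT, peaks on lost genes were centred 441, 443 and 445 bp from the TSS and peaks on kept genes 593, 572.5 and 613 bp (medians, replicates 1, 2 and 3). On the kept genes themselves, which are the same in both genotypes, the median was 593 ± 20.3 bp in WT and 646 ± 11.5 bp in *mbd9-1* (SD, n = 3 each), with 655, 650 and 633 bp in the 3 *mbd9-1* libraries. That difference of 53.1 bp had no overlap between groups (p = 0.1, exact permutation, 0.4 adjusted over 4 measures of the kept genes). Width did not separate the genotypes there, at a median of 932 ± 97.9 bp in WT and 796 ± 270 bp in *mbd9-1* (p = 0.5, exact permutation).

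**Figure D2:**
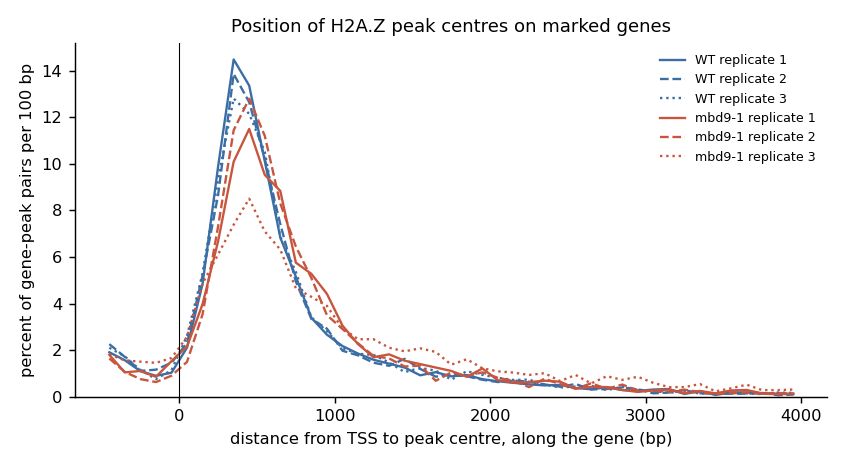
Share of gene-peak pairs (percent per 100 bp) against the distance from the TSS to the peak centre along the gene (bp), 1 line per library, WT in blue and *mbd9-1* in red. The lines crest within 500 bp downstream of the TSS in every library, lower and broader in *mbd9-1* replicate 3, and the share beyond 1000 bp was 20.6% to 21.9% in WT and 23.8% to 36.3% in *mbd9-1*.

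Lost genes were shorter than kept genes. Their median length was 2001.5 bp, against 2407.5 bp for kept genes, 1930 bp for gained genes and 2078 bp for all protein-coding genes, so that the lost genes lay near the genome as a whole and the kept genes above it. Among genes of up to 1 kb that were marked in every WT library, 41.7% were lost and 15.5% kept (n = 374). The lost share was 32.8% at 1 to 2 kb (n = 1336), 28.7% at 2 to 3 kb (n = 1045), 29.7% at 3 to 4 kb (n = 545), 27.9% at 4 to 6 kb (n = 355) and 29.9% above 6 kb (n = 117). The kept share went from 19.2% at 1 to 2 kb through 21.3%, 25.5% and 26.8% to 36.8% above 6 kb. Loss was thus raised mainly in the shortest genes, and keeping rose over the whole range of lengths.

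The order by length turned when the stretch searched did not grow with the gene. When every gene of at least 1000 bp was searched over the same stretch, from 500 bp upstream to 1000 bp downstream of the TSS, lost genes had a median length of 2246 bp and kept genes 2214 bp. With genes of at least 1000 bp searched over the full stretch the medians were 2200 bp for 1034 lost and 2514.5 bp for 756 kept genes. Over the stretch of equal length, the kept share was 17.5% at 1 to 2 kb and 20.2% above 6 kb, and the lost share 36.7% and 41.6%. Without *mbd9-1* replicate 3 the medians were 2027 and 2274.5 bp over the full stretch, and with the 5215 widest peaks of every list 1960.5 and 2393 bp. Over libraries, marked genes had a median length of 2092, 2095 and 2108 bp in WT and 2147.5, 2122 and 2280.5 bp in *mbd9-1*, a difference of 85 bp (p = 0.1, exact permutation) that was 36.4 bp without *mbd9-1* replicate 3 and -50.8 bp over the stretch of equal length.

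Exon number followed length loosely. Lost genes had 5.01 exons on average in their longest transcript, kept genes 5.84, gained genes 4.81 and all protein-coding genes 5.22. Genes with a single exon made up 22.8% of the lost, 24.4% of the kept and 23.8% of the gained genes, all above the 20.5% of the genome. By exon number, the lost share ran from 30.3% with 1 exon (n = 895) to 35.0% with 3 to 4 (n = 798) and 27.1% with 13 or more (n = 328), with no steady order, and the kept share was lowest with 3 to 4 exons (17.8%) and highest with 13 or more (29.3%). Among genes above 2 kb, 23.6% of those with 1 exon were lost (n = 174), against 28.4% of those with 2 to 7 exons (n = 1098) and 30.8% of those with 8 or more (n = 790). The difference in exon number between lost and kept genes, -0.83 exons, was -0.29 without *mbd9-1* replicate 3 and -0.11 over the stretch of equal length. Over libraries, marked genes had a mean of 5.04, 4.99 and 5.19 exons in WT and 4.98, 4.91 and 5.72 in *mbd9-1*, and only replicate 3 of *mbd9-1* lay outside the WT range by more than 0.1 (p = 1 in the exact permutation test).

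The lost share ranged more widely over the length of the gene under WT peaks than over gene length or exon number. The median length of the searched stretch under WT peaks was 667 bp in lost and 1065 bp in kept genes. Of the genes marked in every WT library, those with the least covered stretch (up to 690 bp, n = 1261) were lost in 51.5% and kept in 7.06% of cases. Those in the middle were lost in 31.3% and kept in 18.7% (n = 1254), and those with the most covered (over 964 bp, n = 1257) were lost in 11.7% and kept in 39.0%. The order was the same in short and long genes. Up to 2 kb, the lost share was 52.2%, 34.2% and 13.9% from the least to the most covered, and above 2 kb it was 50.9%, 28.7% and 10.3%. The covered length comes from the same WT lists that define the classes, and no test was made on it. Without read counts, a wide peak may also be a strong one, and the part of peak strength in these shares was not tested.

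**Figure D3:**
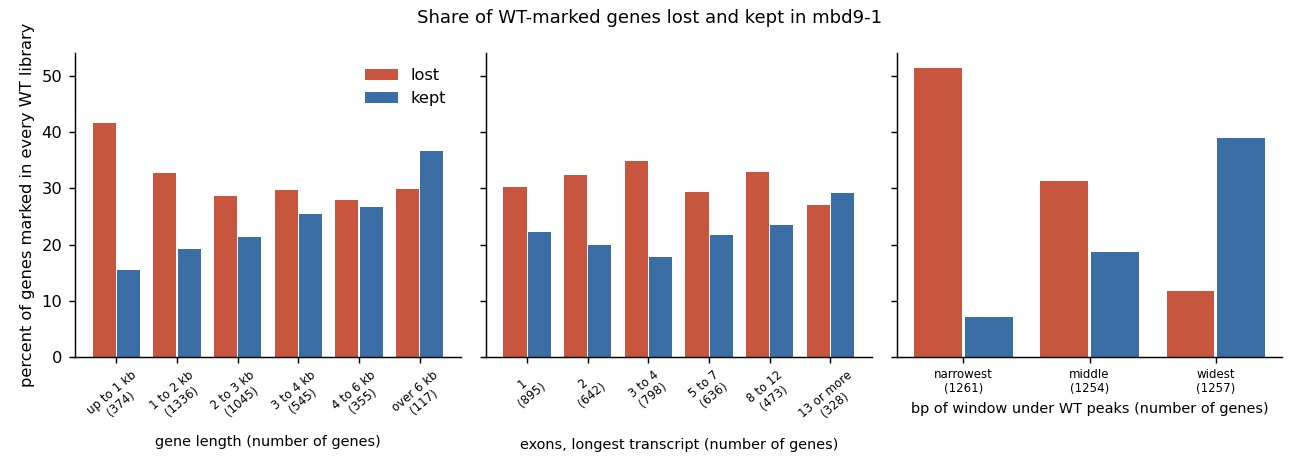
Percent of the genes marked in every WT library that were lost (red) or kept (blue), by gene length, by exon number of the longest transcript and by length of the searched stretch under WT peaks, with the number of genes in brackets. The lost share falls from 51.5% to 11.7% from the least to the most covered genes, a wider range than over length (41.7% to 27.9%) or exon number.

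H4 acetylation, which the classes did not use, was more frequent at lost than at kept genes in each H4Ac library. Acetylated H4 is a mark of active, accessible chromatin and in these WT libraries was listed at 40.2% to 46.1% of protein-coding genes, within the same stretch. In H4Ac replicates 1, 2 and 3, 44.7%, 40.7% and 41.3% of lost genes held a peak, 20.3%, 18.4% and 17.4% of kept genes and 29.1%, 23.2% and 21.2% of gained genes. Lost genes were thus near all genes and kept genes below them, and the 95% Wilson intervals of the lost and kept shares did not meet in any replicate (replicate 1, 41.9% to 47.5% and 17.7% to 23.2%), though these intervals cover counting error only. Genes without H2A.Z in any library were acetylated most often, at 52.9%, 47.1% and 45.9%. Read the other way, of the genes marked by H2A.Z in every WT library, 43.5% of those with an H4Ac peak in replicate 1 were lost and 13.5% kept, against 25.8% and 25.5% of those without. The lost share was 25.8% with an H4Ac peak in no replicate (n = 2398), 25.4% in 1 (n = 236), 34.2% in 2 (n = 257) and 48.1% in all 3 (n = 881).

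The shares were also read within classes of gene length and of H2A.Z coverage. At 2 to 3 kb, 52.3% of lost and 23.8% of kept genes held an H4Ac peak in replicate 1, and above 6 kb 74.3% and 27.9%. Among the genes least covered by WT H2A.Z peaks it was 50.3% of lost and 28.1% of kept genes, and among the most covered 28.6% and 15.9%. Under lists of equal length, over the stretch of equal length and without each of the 6 H2A.Z libraries, between 37.2% and 49.3% of lost genes and between 16.8% and 23.3% of kept genes held an H4Ac peak in a replicate. The H4Ac libraries are of WT plants, those of *mbd9-1* were not used here, and what the acetylation of these genes was in the mutant was not tested.

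**Figure D4:**
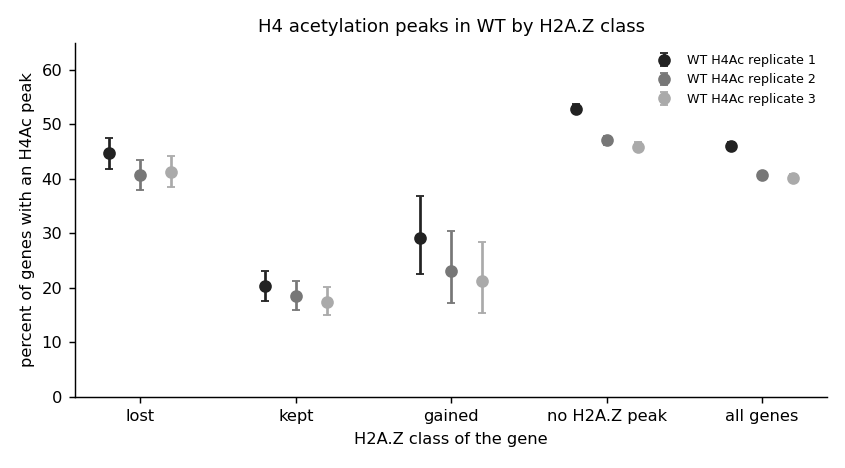
Percent of genes with an H4Ac peak in each of the 3 WT H4Ac libraries, by H2A.Z class, with 95% Wilson intervals that cover counting error only. Lost genes (40.7% to 44.7%) sit with all genes (40.2% to 46.1%), and kept genes (17.4% to 20.3%) far below.

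Most peaks of every class were centred in coding sequence. In WT replicate 1, 64.6% of centres on lost genes lay in a coding exon, 18.3% in an intron, 9.54% in a UTR exon and 7.62% upstream of the TSS. On kept genes the same library had 73.9%, 17.5%, 5.30% and 3.28%. Coding exons make up 42.7% of the searched bases of lost and 49.4% of those of kept genes. Centres upstream of the TSS were more frequent on lost than on kept genes in each WT library (7.62%, 7.68% and 7.38% against 3.28%, 3.50% and 2.63%). In *mbd9-1* replicates 1, 2 and 3 such centres made up 5.10%, 5.70% and 6.13% on gained genes and 2.90%, 3.03% and 3.35% on kept genes. Of the centres on gained genes, 73.2%, 72.2% and 68.1% lay in coding exons in the same libraries. The G+C content of the searched stretch differed little, with medians of 37.4% in lost, 38.5% in kept, 38.1% in gained and 37.5% in all genes. The ratio of observed to expected CG under peaks was 0.86 at lost and 0.80 at kept genes in WT replicate 1.

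The arrangement of neighbouring genes separated the classes weakly. A divergent neighbour is the nearest gene on the 5′ side when it lies on the other strand and its TSS is within 1000 bp. Of lost genes 22.4% had one, of kept genes 23.8%, of gained genes 13.2% and of all genes 21.4%. With a limit of 500 bp the order of lost and kept turned, at 15.3% and 13.1%. Over libraries the share of marked genes with such a neighbour was 21.1%, 21.6% and 21.5% in WT and 20.5%, 20.4% and 19.5% in *mbd9-1*, a difference of -1.31 percentage points with no overlap (p = 0.1, exact permutation). When each peak marked only the gene with the nearest TSS the difference was -0.63 and the groups overlapped. On the 3′ side, 47.1% of lost, 41.2% of kept and 48.0% of all genes ended towards a neighbour on the other strand. The gap to the next gene upstream had a median of 1025 bp in lost, 1154.5 bp in kept, 1256 bp in gained and 947 bp in all genes, so that marked genes of each class had more upstream room than the average gene.

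Neighbouring genes were also compared by class. Of 581 lost genes whose upstream neighbour lay on the other strand, 76 (13.1%) had a neighbour that was lost as well, and 52 (11.7%) of 444 kept genes had a neighbour that was kept, against 4.34% and 2.97% of all genes. A peak between a pair of starts can mark both genes. When each peak was given to 1 gene, the lost neighbours were 10 of 536 (1.87%) and the kept neighbours 16 of 402 (3.98%). For genes that follow each other on the same strand the lost neighbours upstream were 38 of 608 (6.25%) and, with 1 gene per peak, 32 of 600 (5.33%). The kept neighbours upstream of kept genes on the same strand were 19 of 370 (5.14%) and, with 1 gene per peak, 19 of 355 (5.35%). With 1 gene per peak, 1137 genes were lost and 757 kept in all. A peak shared by a divergent pair then marks only 1 of its genes, so the fall in divergent pairs was built in. The pairs on the same strand changed little. In WT replicate 1, 131 of 1190 lost and 71 of 814 kept genes were marked only by a peak that also marked another gene. Over all marked genes this share was 11.3%, 11.2% and 10.9% in WT and 9.26%, 9.01% and 9.29% in *mbd9-1* (p = 0.1, exact permutation, 0.25 adjusted over the 5 added measures).

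By known function, genes were grouped by words of their RefSeq product names into 25 lists, and the H2A.Z genes with the SWR1 subunits formed a further list. Of the 26 lists, 24 had at least 10 members marked in every WT library, and in 15 of these more members were lost than kept, in 8 more were kept than lost. This tally depended on the setting. Of those 8 lists, 7 had more lost than kept members over the stretch of equal length, 6 with peaks above the most common width of each list, 6 without WT replicate 2 and 4 without *mbd9-1* replicate 2. Without *mbd9-1* replicate 3, 11 lists had more lost and 12 more kept members, and with lists of equal length 10 and 11. Counts are read against the 31.5% lost and 21.6% kept among all 3772 genes, and no list was tested.

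F-box proteins, the substrate receptors of ubiquitin ligases, showed the clearest excess of loss among the long lists. Of 653 members, WT replicates 1, 2 and 3 marked 271, 202 and 225 and *mbd9-1* replicates 1, 2 and 3 marked 125, 152 and 98. Of the 123 marked in every WT library, 50 (40.7%) were lost and 11 (8.94%) kept. F-box genes are short, with a median of 1367 bp, but among genes of up to 2 kb 43.3% of them were lost and 7.69% kept, against 34.2% and 19.1% of other genes of that size. In none of the alternatives tried did more F-box genes count as kept than as lost; the closest was the comparison without *mbd9-1* replicate 3, with 55 lost and 28 kept. AT1G69630, an F-box/RNI-like gene of 1703 bp, had 1545, 1464 and 1353 bp under peaks in WT and none in *mbd9-1*. AT1G20800, an F-box gene of 1523 bp, had 1796, 1646 and 1606 bp in WT and still 623, 588 and 605 bp in *mbd9-1*.

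Ribosomal proteins and pentatricopeptide repeat proteins, which bind RNA in plastids and mitochondria, are mostly encoded by steadily expressed genes. Expression was not measured here, and a link between it and loss was not tested. Few ribosomal protein genes were marked at all (84 of 344 in any library), and of 22 marked in every WT library 11 were lost and 1 kept. The kept one, AT5G25230, is named as a ribosomal protein S5/elongation factor G family protein, so its place in the list rests on a word of that name. The same holds for the lost AT1G54217, named as of the ribosomal protein L18ae family. With any overlap of a peak with the stretch 11 were lost and 5 kept, and over the stretch of equal length 9 and 0. Of 47 pentatricopeptide repeat genes marked in every WT library, 17 (36.2%) were lost, near the 31.5% of all genes, and 5 (10.6%) kept, below the 21.6%. Up to 2 kb, 34.8% of them were lost, against 34.7% of other genes of that size, and above 2 kb 37.5% against 28.8%. Both lists were rich in H4Ac, with 75.9% and 65.4% of members listed in H4Ac replicate 1, against 46.1% of all genes. AT1G52640, a single-exon pentatricopeptide repeat gene of 1744 bp, had 1419, 1499 and 1560 bp under WT peaks and none in *mbd9-1*.

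NLR immune receptors, which sense pathogen effectors inside the cell, went the other way. WT replicates 1, 2 and 3 marked 53, 40 and 43 of 159 members and *mbd9-1* replicates 1, 2 and 3 marked 37, 48 and 43, so that the groups overlapped and the *mbd9-1* mean was 94.1% of the WT mean, against 62.1% over all genes. Of 26 marked in every WT library, 3 were lost and 11 kept. They are long genes (median 4227 bp), and over the stretch of equal length near the TSS the order turned, with 5 lost and 2 kept. With peaks above the most common width of each list 5 were lost and 5 kept. AT5G45230, a TIR-NBS-LRR gene of 6157 bp, had 3343, 2610 and 3256 bp under peaks in WT and 495, 2974 and 922 bp in *mbd9-1*. In WT replicate 1 it had 3 peaks, 1 of them centred 3518.5 bp from the TSS.

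Kinases, which pass signals on by phosphorylation, were nearly even. Of 225 genes of the kinase list marked in every WT library 50 were lost and 54 kept. The kept ones include *NET2C*, which is named as a kinase-interacting protein and not as a kinase. Of 77 in the list of receptor-like and leucine-rich repeat kinases, which sense signals at the cell surface, 15 were lost and 25 kept. Above 2 kb, 21.2% of kinase genes were lost and 25.7% kept, against 29.6% and 24.1% of other genes of that size. The order of the kinase counts turned over the stretch of equal length (56 lost and 27 kept), with the wider peaks (47 and 28), without WT replicate 2 (91 and 66), without WT replicate 3 (69 and 61) and without *mbd9-1* replicate 2 (83 and 60). Without *mbd9-1* replicate 3 it was 58 lost and 97 kept. The receptor-like list turned over the stretch of equal length (17 and 9) and with the wider peaks (14 and 11). AT1G24650, a leucine-rich repeat kinase gene of 2746 bp, had 2439, 2521 and 2809 bp under peaks in WT and 2308, 1953 and 955 bp in *mbd9-1*.

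Among transcription factors, the NAC family had 9 lost and 1 kept of 14 marked in every WT library, and 4 lost with lists of equal length. MYB factors had 8 and 2 of 19. WRKY factors had 3 and 0 of 11, a lost share of 27.3%, and with lists of equal length none was lost. As many WRKY genes were gained as lost, 3 of 72 members, against 0.55% gained among all protein-coding genes. The WT and *mbd9-1* libraries overlapped in the number of WRKY genes marked. Gained and lost members were also equal for NLR immune receptors (3 of 159) and MADS factors (2 of 120). Of 83 NAC genes, WT replicates 1, 2 and 3 marked 38, 31 and 25 and *mbd9-1* replicates 1, 2 and 3 marked 8, 9 and 10, a mean of 28.7% of WT and the lowest ratio of the 24 lists. *NAC3* had 1093, 829 and 867 bp under WT peaks and none in *mbd9-1*, and *NAC044*, the kept member, which acts in the response to DNA damage, went from 2503, 1338 and 1346 bp to 495, 471 and 381 bp. *WRKY53*, a regulator of leaf senescence, had 1316, 461 and 428 bp in WT and none in *mbd9-1*. Basic helix-loop-helix factors (9 lost and 7 kept of 24), homeobox factors (8 and 7 of 23) and MADS factors (2 and 3 of 15) had counts closer to each other. The homeobox list also takes in genes named only as homeodomain-like, such as *EDA31*, AT3G19070 and AT4G09450, so it is not limited to homeobox genes. The ERF/AP2 list had 8 and 6 of 25, among them *DRIP1*, which encodes a ubiquitin ligase for an AP2 factor and is no factor itself. Its kept members AT5G60140 and AT5G58280 are named AP2/B3-like, so the list also takes in genes with a B3 name.

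The remaining lists covered metabolism, structure and signalling. Auxin response proteins had 11 lost and 3 kept of 23, defensins and lipid transfer proteins 7 and 1 of 12, zinc finger and RING proteins 47 and 29 of 123, UDP-glycosyltransferases 10 and 4 of 27, and cell wall enzymes 23 and 16 of 68. Cytochrome P450s had 12 and 13 of 59, transporters 23 and 27 of 99, heat shock proteins 7 and 7 of 33, calcium sensors 4 and 6 of 25, and peroxidases 3 and 5 of 11. Over the stretch of equal length P450s had 13 lost and 3 kept, transporters 22 and 10, and calcium sensors 4 and 3, and with the wider peaks these lists had 19 and 5, 28 and 16, and 7 and 2. The histone list, which takes in histone-modifying enzymes, had 3 and 2 of 12, and of the photosynthesis proteins 2 were marked in every WT library, of which 1 was lost. *CYP83A1*, an enzyme of glucosinolate synthesis, had 1212, 1165 and 1292 bp under peaks in WT and none in *mbd9-1*, while *CYP86B1*, a hydroxylase of long-chain fatty acids, had 1770, 1641 and 1707 bp in WT and 751, 855 and 484 bp in *mbd9-1*. *HSP17.6A*, a small heat shock protein gene of 882 bp, had 1002, 962 and 855 bp in WT and none in *mbd9-1*, while *ATHSP22.0*, a kept member, had 1187, 1165 and 1023 bp in WT and 621, 858 and 573 bp in *mbd9-1*.

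**Figure D5:**
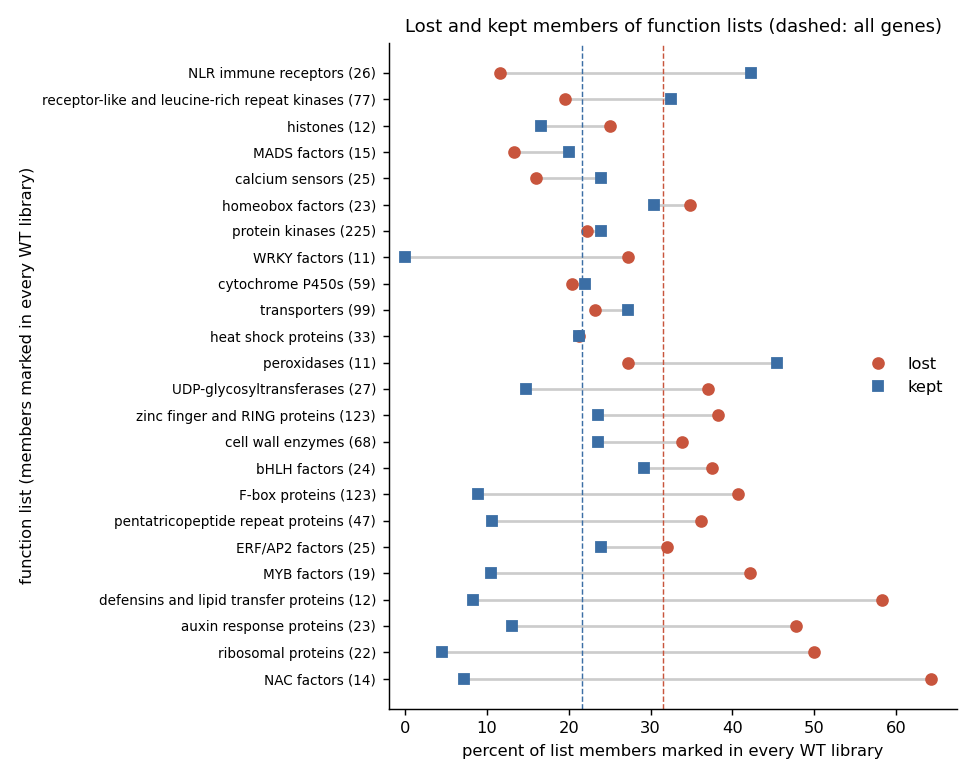
Percent of the members marked in every WT library (number in brackets) that were lost (red circles) or kept (blue squares), for the 24 lists with at least 10 such members, ordered by the ratio of marked genes in *mbd9-1* to WT. Dashed lines give all genes (31.5% lost, 21.6% kept), and NAC factors, ribosomal proteins and NLR immune receptors (3 lost, 11 kept of 26) lie at the ends of the order.

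Only lost genes with no base under an *mbd9-1* peak were considered here, and the 8 with the longest covered stretch in WT were of varied function. *PLT2*, an AP2 factor that maintains the root stem cell niche, had 1996, 2193 and 1013 bp under peaks in WT replicates 1, 2 and 3. In replicate 1 it had 2 peaks, 1 of them centred 2850.5 bp from its TSS. *ABCG23*, a single-exon transporter gene of 2055 bp (chromosome 5, 6545123 to 6547177, - strand), had 1653, 1857 and 1965 bp. AT2G19410, which encodes a U-box kinase, had 1936, 1917 and 1300 bp, AT5G44440, a berberine-bridge-type oxidase gene, 2015, 971 and 2076 bp, and AT1G10640, a pectin lyase-like gene, 1368, 1450 and 2066 bp. AT2G34400, a pentatricopeptide repeat gene, had 2405, 1102 and 1737 bp, and it was the only one of the 8 with H4Ac peaks in all 3 libraries. AT5G59390 and AT4G19380, whose sequences are given above, had 2513, 1136 and 2350 bp and 1967, 1798 and 1807 bp. Long covered stretches in WT were thus found among lost genes too.

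The kept genes with the longest covered stretch were long genes. *TIL2*, 13184 bp with 49 exons, encodes a catalytic subunit of DNA polymerase epsilon and had 4845, 3378 and 4881 bp under peaks in WT and 3613, 5428 and 3194 bp in *mbd9-1*. *CALS5*, the callose synthase of the pollen wall, had 3749, 2693 and 1964 bp in WT and 3609, 5876 and 4632 bp in *mbd9-1*, above WT in replicates 2 and 3. AT1G50820 had more in each *mbd9-1* library (3568, 5372 and 4127 bp) than in any WT library (1606 to 3488 bp). *TRM7* and *HAF2*, a histone acetyltransferase gene, by contrast had only 381 bp under a peak in *mbd9-1* replicate 3, the narrowest width in that list, against 2370 to 4208 bp in WT. AT4G38062, *ABCA9* and AT4G14330 had 3502 to 3604, 3090 to 3587 and 2652 to 3093 bp in WT and 1409 to 3418, 1823 to 3263 and 2174 to 2582 bp in *mbd9-1*.

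The gained genes were few. Only those with no base under a WT peak were considered here, and the 8 with the longest covered stretch are given. *ABCG33*, an ABC transporter gene of 6489 bp, had 1763, 2836 and 1095 bp under peaks in *mbd9-1* replicates 1, 2 and 3, and AT1G54280, a P-type ATPase gene, 1079, 2464 and 1920 bp. AT3G44790 had 1824, 1756 and 1182 bp and was the only one of the 8 with H4Ac peaks in all 3 WT libraries, while the other 7 had none. *XIC*, which encodes a myosin, had 2151, 1323 and 1143 bp, *M17*, a late embryogenesis abundant protein gene, 1544, 1371 and 595 bp, and *CRK34*, a cysteine-rich receptor-like kinase gene, 1477, 841 and 1136 bp. AT1G54860 and AT1G44050 had 989 to 1531 bp and 1055 to 1178 bp.

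Of 16 genes for H2A.Z, SWR1 subunits and MBD9, 7 (43.8%) were marked in any library, near the 47.5% of all protein-coding genes. *HTA8*, a gene for H2A.Z, was kept, with 989, 926 and 976 bp under peaks in WT and 888, 1089 and 833 bp in *mbd9-1*. *HTA11*, another, was lost by peak centres, with 1037, 607 and 881 bp in WT, but a peak of *mbd9-1* replicate 2 whose centre lay outside covered 1530 bp of its stretch. *HTA9*, the remaining H2A.Z gene of the list, and *ARP6* were marked in none, and *PIE1* in WT replicate 1 only. *MBD9* was unmarked in WT and marked in *mbd9-1* replicates 2 and 3, by peaks covering 471 and 381 bp, which are the most common peak widths of those lists.

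Loci that the study examined by quantitative PCR were mostly marked in only part of the WT libraries. *FLC*, the floral repressor, had 549 and 542 bp under peaks in WT replicates 1 and 3, none in replicate 2 and none in *mbd9-1*. AT1G62760 and AT5G28410 were likewise marked in WT replicates 1 and 3 only. AT4G15960 was marked in WT replicates 1 and 2 and in *mbd9-1* replicate 1. AT1G76740 had 1340 and 1533 bp in WT replicates 1 and 3, none in replicate 2, and 2723, 1836 and 1978 bp in *mbd9-1*, all above WT. *4CL2*, an enzyme gene of phenylpropanoid synthesis, had 1124, 1052 and 696 bp in WT and 953, 793 and 0 bp in *mbd9-1*. AT5G03545, known as *At4* and induced by phosphate starvation, was marked in 1 WT library and in no *mbd9-1* library, and was added after its values had been seen. The actin gene *ACT2* and the SKP1-like gene *SK11* were marked in none of the 6 libraries. *ACT2* was the endogenous control of the paper's qPCR. For *SK11*, which the paper calls *ASK11*, and for *At4* the paper reported H2A.Z in WT by ChIP-qPCR and its depletion in *mbd9* plants.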

How the data were processed

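H2A.Z was profiled by ChIP-seq in 3 WT and 3 *mbd9-1* libraries and H4Ac in 3 WT libraries. The authors mapped 50-nt single-end reads to TAIR10 with Bowtie2, filtered them with Samtools to nuclear reads of high quality, and ran HOMER's peak finder (region option) per library against input on unscaled reads. For the caller, version and threshold were not given in the sources used here. The deposited lists give chromosome, start and end (positions in bp, no count or score), so the depth behind a peak is unknown. The paper does state a minimum number of aligned nuclear reads per replicate. Gene models came from RefSeq (TAIR10.1), whose nuclear chromosomes match the lists. Libraries of *arp6-1*, H4Ac in *mbd9-1* and input were not analysed here.

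Marking, classes and exact two-sided permutation tests over libraries (20 splits) were computed with Python 3.11.15, NumPy 2.4.6 and pandas 2.3.3, and figures drawn with matplotlib 3.10.9. The steps were tested on simulated lists with known classes. Members and lists were chosen with earlier results of these data known, and letter case in the matching of product names was corrected after the lists were opened. The genes named are the study's qPCR loci and complex members, the 8 lost, kept and gained genes with a named product and the longest covered stretch (lost and gained with none in the other genotype), and, of each function list, up to 2 lost and 2 kept members with the longest stretch under WT peaks, of which some are printed. DRIP1 and NET2C were named as exceptions to their lists. Lists rest on product names, so AP2 genes named by another domain, such as PLT2, fall outside the ERF/AP2 list. Genes named for a partner or a shared domain can fall inside a list in the same way. Of the qPCR loci, AT2G34202 is not protein-coding and was left out, and AT5G03545 was missing from the rule and added later. Alternatives changed the stretch searched, the overlap, shared peaks, peak width, list length, gene set, libraries needed, exon count, neighbour distance and each replicate. The measures added after the lists were opened were 5 per library, the H4Ac and length shares under alternatives, the neighbours with 1 gene per peak, genes of at least 1 kb over the full stretch, and the order of list counts by setting.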

Additional observations from a re-analysis of the deposited data

How the results depend on the processing

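Fewer genes were marked in *mbd9-1*, and peak centres lay farther from the TSS there, under each alternative run, though with lists of equal length the difference was -689 genes. Over the stretch of equal length, the difference in median length of marked genes was -50.8 bp and in mean exon number -0.338, lost genes exceeded kept genes by 32 bp in median length and differed by -0.113 in exons and -4.59 points in divergent neighbours, and 445 genes were kept. That setting also leaves out genes under 1 kb. From TSS to TES only, the divergent difference was -2.43. With any overlap, lost minus kept was -326 bp, -0.602 exons and -3.04 points. With 1 gene per peak, it was -431 bp, and the single-exon difference over libraries -0.021 points. With peaks above the most common width, 439 genes were kept and 78 gained, and lost minus kept was -318 bp and -5.21 points. With lists of equal length, 716 genes were lost and 257 gained, the single-exon difference was -1.29 points, and lost minus kept was -432.5 bp and -1.91 points. With all annotated genes, the exon difference over libraries was -0.0951, and lost minus kept -514.5 bp and -0.225 points. With 2 of 3 libraries sufficient, 2765 genes were lost, 2570 kept and 676 gained, and lost minus kept was -248.5 bp, -0.293 exons and 0.791 points. With neighbours within 500 bp the last value was 2.15. The cause was not tested, beyond fewer peaks in shorter lists and fewer calls needed.

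Leaving out 1 library gave 1338 to 2075 lost (the highest without WT replicate 2), 872 to 1376 kept (the highest without *mbd9-1* replicate 3) and 175 to 459 gained genes (the highest without *mbd9-1* replicate 3). Lost minus kept ran from -416.5 to -247.5 bp, -0.933 to -0.29 exons and -2.19 to -0.0473 points. Between genotypes, marked genes differed by -3418 to -2044, median length by 36.4 to 116 bp, exons by -0.126 to 0.277, single-exon share by -0.411 to 1.41 points, divergent share by -1.49 to -0.989 points and TSS distance by 85.6 to 142 bp. Samples with the same replicate number did not deviate together over 13044 genes (correlations of -0.000868, -0.0123 and 0.0151), and with a replicate block the differences were unchanged by construction, at -2708 genes, 85 bp, 0.132 exons, 0.224 and -1.31 points and 119 bp, with a smallest exact p of 0.25.

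Of the lost and kept counts of single function lists under alternatives, 147 moved by more than 1.5 times and 529 did not. The precision of all values is limited by the unknown depth behind each peak, by 3 libraries per genotype, which allow no p below 0.1, and by calls without strength. Lists of peaks cannot show partial loss at a gene that stays above the threshold, nor marking below it.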

Other observations

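Chromosomes differed little. Of the genes marked in every WT library, 31.8% were lost on chromosome 1 (n = 991), 33.5% on chromosome 2 (n = 573), 31.0% on chromosome 3 (n = 768), 28.8% on chromosome 4 (n = 577) and 32.3% on chromosome 5 (n = 863), and the kept share lay between 20.1% and 22.9%.

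Unmarked genes also had a shape of their own. The 14400 genes without an H2A.Z peak in any of the 6 libraries had a single exon in 19.4% of cases, against 23.7% of those marked in every WT library, their introns took a median of 26.8% of the gene against 20.5%, and the gap to the next gene upstream was 858 bp against 1108 bp. The gap downstream was 312 bp against 546.5 bp.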
